A study of Rattus norvegicus with 18 samples.

Results

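The comparison described here asked whether procainamide changed gene expression in blood differently in Brown Norway (BN) and Sprague Dawley (SD) rats. It took the log2 change with procainamide in BN and subtracted the log2 change with procainamide in SD, so a positive value means a response that was higher in BN and a negative value a response that was lower in BN. All 18 of the 18 arrays entered it, chosen by the strain and treatment in their titles: 4 from BN rats given procainamide, 4 from BN control rats, 5 from SD rats given procainamide and 5 from SD control rats. All the rats were male, procainamide was given at 40 mg/kg and controls received sterile water, and blood was taken from the venous sinus of the eye when treatment ended. Ages and the length of treatment are not given in the sources used here. BN is an inbred strain and SD an outbred stock, which limits what 1 genotype per strain can stand for.

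Procainamide is an antiarrhythmic drug that blocks sodium channels. It is known for causing a lupus-like disease with antibodies to nuclear antigens in some patients, and inhibition of DNA methylation in T cells is among the mechanisms proposed for it. BN rats are known for antibody-rich, T helper type 2 autoimmune reactions to gold and mercury salts, to which other strains are resistant. Leukocytes answer interferon gamma, a cytokine of T and NK cells, through genes with the palindromic GAS element, and answer type I interferons through genes with ISRE elements.

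Each array carried the sample in Cy5 and, per the labels, RNA of control replicate 1 of the same strain in Cy3. By design the reference RNA of a strain cancels when its control arrays are subtracted from its treated arrays. In Cy3 alone, however, 13510 of 26446 probes passed the same test. Values of BN and SD arrays are ratios to different RNAs, so they do not rank expression across strains. The arrays of control replicate 1 by their labels compare an RNA with itself. Median Cy5 signal was 27.3 to 48.7 times its local background, and 26446 probes, standing for 13616 named genes, had Cy5 well above background on at least 4 arrays. The layout was unbalanced: all 4 BN procainamide arrays sat on slide 3, SD procainamide 1 to 3 shared slide 1 with the 5 SD controls, and SD procainamide 4 and 5 shared slide 2 with the 4 BN controls. Day 1 of scanning covered slides 3 and 1, and day 2 covered slide 2. Within BN, treatment and scan day thus cannot be told apart. Only the 5 SD procainamide arrays, split over both days, carry information on the day. Slide 3 held BN procainamide arrays alone, so slide and group cannot be told apart there. The scan day term does not adjust for slide 3. Of 30 defining markers of blood cells and endothelium, 26 were tested and all 26 were above background on 18 arrays. In whole blood, fewer cells of a type and less RNA per cell cannot be told apart.

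The responses of the strains differed for 1455 of 13616 named genes (10.7%) by limma at a Benjamini-Hochberg adjusted p under 0.05. The BN response was higher for 429 genes (3.15%) and lower for 1026 (7.54%). Of the 1026 lower genes, 883 fell in BN and did not pass the test in SD, 20 rose in SD alone, 5 fell in BN and rose in SD, 7 fell in both, and 111 passed in neither strain by itself. Of the 429 higher genes, 316 rose in BN alone, 23 fell in SD alone, 3 rose in BN and fell in SD, 11 rose in both and 76 passed in neither. The estimated responses had opposite signs for 1255 of the 1455 genes, and the BN response was the larger in size for 89.5% of them, against 66.2% of all genes. Across the 13616 genes, which are not independent replicates, the BN and SD responses had a Pearson r of 0.246 and a Spearman rho of 0.0942.

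**Figure D1:**
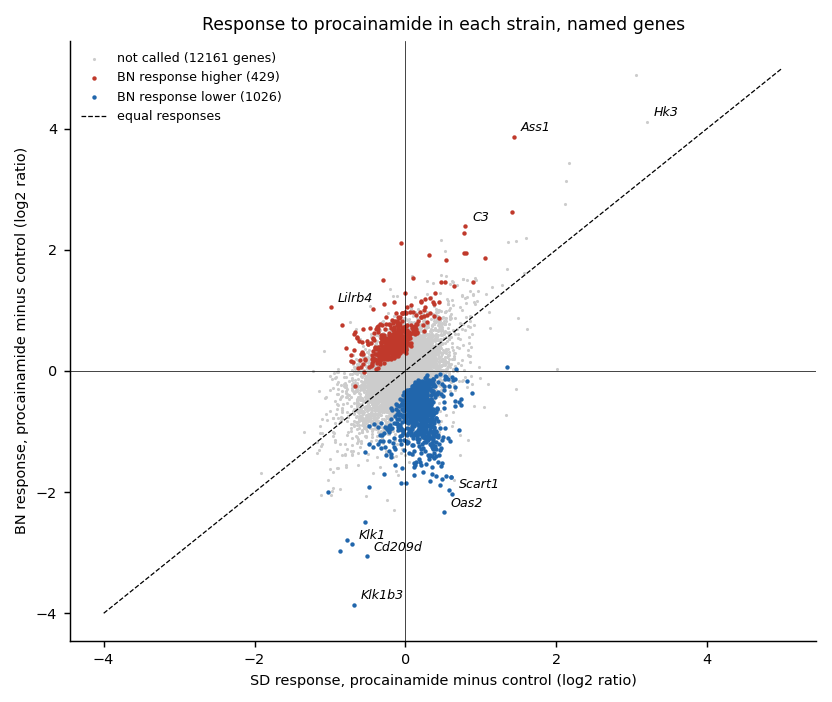
Response of each named gene to procainamide, BN on the vertical axis and SD on the horizontal axis, both as procainamide minus control in log2 ratio. Red points are the 429 genes with a higher and blue points the 1026 with a lower BN response, and most lie away from the dashed line of equal responses, close to 0 on the SD axis.

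The count depended on the scan day. With scan day as a term no probe of 26446 passed (smallest adjusted p 0.238), where 2948 passed without it, and 1528 probes had an unadjusted p under 0.05 in limma. For named genes that was 737 of 13616 (5.41%). The direction stayed the same for 98.1% of the 2948 probes, against 74.3% of all probes, their median size was 0.41 with the term against 0.71 without it, and the median standard error over all probes was 0.29 against 0.18. Of the 1026 lower genes, 228 kept at least 80% of their size and 443 kept less than 50%, and of the 429 higher genes 139 and 144 did. With array brightness as a term, 6 probes passed, all lower in BN, among them Klk1b3, Cd209d and Klk1. The naming rule given below with the processing picked 82 genes that passed. For 34 of them the difference was over 1.5 times smaller with scan day and for 39 with brightness as a term. In Cy5 alone, without the reference channel, it was so for 18, turned sign for Il2, and 14 calls ended (Sucnr1, Irf1, Il1rn, Lef1, Il9, Il2, P2ry12, Tat, Fkbp5, Cdc20, Mcm2, Rpl35, Psmb6 and Esam).

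A contrast that the strain comparison without scan day does not use, the SD procainamide arrays of slide 2 against those of slide 1, moved with it. The same contrast sets the scan day term, so the shrinkage under that term is not a separate observation. Among the 1026 genes lower in BN, both slide 2 arrays lay above all 3 slide 1 arrays for 534 (52.0%), against 1994 of all 13616 genes (14.6%). The median over the lower genes was 0.45 on slide 2 and 0.23 on slide 1 in SD procainamide. In the same genes it was 0.05 in BN procainamide and 0.54 in BN control. On the arrays labelled control 1 in both channels it was 0.48 in BN and 0.12 in SD. Among the 429 genes higher in BN, both slide 2 arrays lay below all 3 slide 1 arrays for 42.9%, against 15.3% of all genes.

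Tissue kallikreins, serine proteases of which Klk1 releases kinins from kininogen, had the largest single difference and no member with a positive one. Of 14 members tested, 7 were lower in BN (Klk1b3, Klk1, Klk1c3, Klk1c8, Klk10, Klk13 and Klk12), which is 50%, against 7.54% of all genes. None was higher, and all 14 estimates were below 0. The median was -0.84, against 0.01 for all genes, and it was -0.50 with scan day as a term, where 2 of the 14 estimates were above 0, -0.27 with array brightness as a term and -0.83 without the control 1 arrays. The genes lie in 1 cluster on rat chromosome 1 and many are near-identical copies, so signal of one member on the probe of another cannot be told apart here.

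The promoters are printed because 4 of the 7 members that were lower in BN share a block of 19 bases near the start, the longest run held by a majority of the list's promoters. These stretches come from RefSeq, build GRCr8, for Klk1b3 (chr1:103845570-103845640, plus strand), Klk1 (chr1:103779111-103779181, plus strand), Klk1c8 (chr1:103684201-103684271, plus strand), Klk1c3 (chr1:103808031-103808101, plus strand) and Klk1c12 (chr1:103518725-103518795, minus strand), the last of which did not differ past the threshold. Capitals mark the block TTTAAAGGCTCCCCAAGGA, searched on both strands.
Klk1b3: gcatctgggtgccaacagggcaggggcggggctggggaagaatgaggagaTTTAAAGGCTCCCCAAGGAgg
Klk1: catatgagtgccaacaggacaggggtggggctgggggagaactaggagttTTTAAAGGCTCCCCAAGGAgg
Klk1c8: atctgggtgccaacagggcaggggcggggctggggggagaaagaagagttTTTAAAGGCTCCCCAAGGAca
Klk1c3: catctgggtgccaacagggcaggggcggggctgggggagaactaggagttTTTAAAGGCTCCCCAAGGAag
Klk1c12: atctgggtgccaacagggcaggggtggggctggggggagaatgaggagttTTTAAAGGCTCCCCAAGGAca
The block was chosen as held by a majority of the list's promoters, so its count there is no test of enrichment. It was in 7 of 13 kallikrein promoters with a RefSeq entry and in 8 of all 27457 promoters (0.0291%). It was also in Klk1c2, Klk1c10 and Klk1c12, whose responses did not differ past the threshold, so holding the block did not separate the members that differed from those that did not. Aligned on the block without gaps, Klk1 and Klk1c3 were identical at 40 of 41 positions, and Klk1b3 and Klk1c12 at 26 of 41. The 41 positions include the 19 of the block, which are identical by construction. Stretches shifted by an inserted base count as different, so these counts do not measure how alike the copies are.

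Klk1b3, the gene of the gamma subunit of nerve growth factor, had log2 ratios of -3.91, -2.78, -4.04 and -3.87 in BN procainamide and of 0.71, 0.44, -0.21 and -0.10 in BN control. In SD they were -0.53, -0.56, -1.15, -0.68 and -0.18 with procainamide and -0.22, 0.35, -0.10, 0.51 and -0.23 in controls. The BN groups lay far apart, whereas in SD 1 treated array, replicate 5, reached into the range of the controls. The BN response was -3.86 ± 0.28 (SE) and the SD response -0.69 ± 0.25, a difference of -3.17 ± 0.37 (95% interval -3.97 to -2.38, limma adjusted p = 0.000827), and with scan day as a term it was -2.73 ± 0.63. Klk1 itself had -2.60, -2.38, -3.10 and -2.84 in BN procainamide and 0.46, 0.39, -0.13 and -0.18 in BN control. In SD it had -0.50, -0.58, -0.92, -0.69 and -0.46 with procainamide and -0.18, 0.35, -0.14, 0.57 and -0.20 in controls. Neither strain's groups overlapped, and Klk1 fell in both, with responses of -2.86 in BN and -0.71 in SD (difference -2.16 ± 0.27, adjusted p = 0.00106, and -2.03 with scan day as a term).

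Klk1c8 and Klk1c3, members of the glandular kallikrein group of the rat, followed the same course. Klk1c8 had -2.63, -2.48, -3.06 and -2.87 in BN procainamide and 0.59, 0.26, -0.33 and -0.38 in BN control, against -0.45, -0.60, -0.79, -0.79 and -0.35 in SD procainamide and -0.01, 0.40, -0.14, 0.65 and -0.02 in SD control. Again no BN or SD group overlapped with its control, and the difference was -2.02 ± 0.28 (adjusted p = 0.00132). Klk1c3 differed by -2.11 (BN -2.97, SD -0.87). With scan day as a term these were -1.97 and -2.16. Klk10 behaved otherwise: it had 0.33, 0.24, 0.32 and 0.41 in BN procainamide, with 1.33, 1.06, 1.18 and 1.76 in BN control, and its difference was -1.36 with a value of -1.06 under the scan day term. Klk1c2, Klk1c9 and Klk1c12 had estimates below 0 in both strains (Klk1c2 -2.05 in BN and -1.12 in SD, Klk1c9 -1.03 and -0.94, Klk1c12 -0.66 and -0.56) and differences of -0.93, -0.09 and -0.10 that did not pass.

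Cd209d, a C-type lectin of the DC-SIGN family of myeloid cells, passed as lower in BN near the limit of detection. Its log2 ratios were -3.80, -2.47, -3.33 and -3.74 in BN procainamide and -0.22, 0.22, -0.89 and -0.24 in BN control, with no overlap. In SD they were -0.54, -0.71, -0.86, -0.76 and -0.55 with procainamide and -0.62, 0.58, -0.32, -0.20 and -0.28 in controls. Cy5 was well above background on 1 of 4 BN procainamide, 4 of 4 BN control, 0 of 5 SD procainamide and 2 of 5 SD control arrays. The SD response and the strain difference therefore have no measured size, and the BN fall rests on 1 detected treated array. The limma estimate of the difference was -2.54 ± 0.38 (adjusted p = 0.00132), and -2.48 with scan day as a term.

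**Figure D2:**
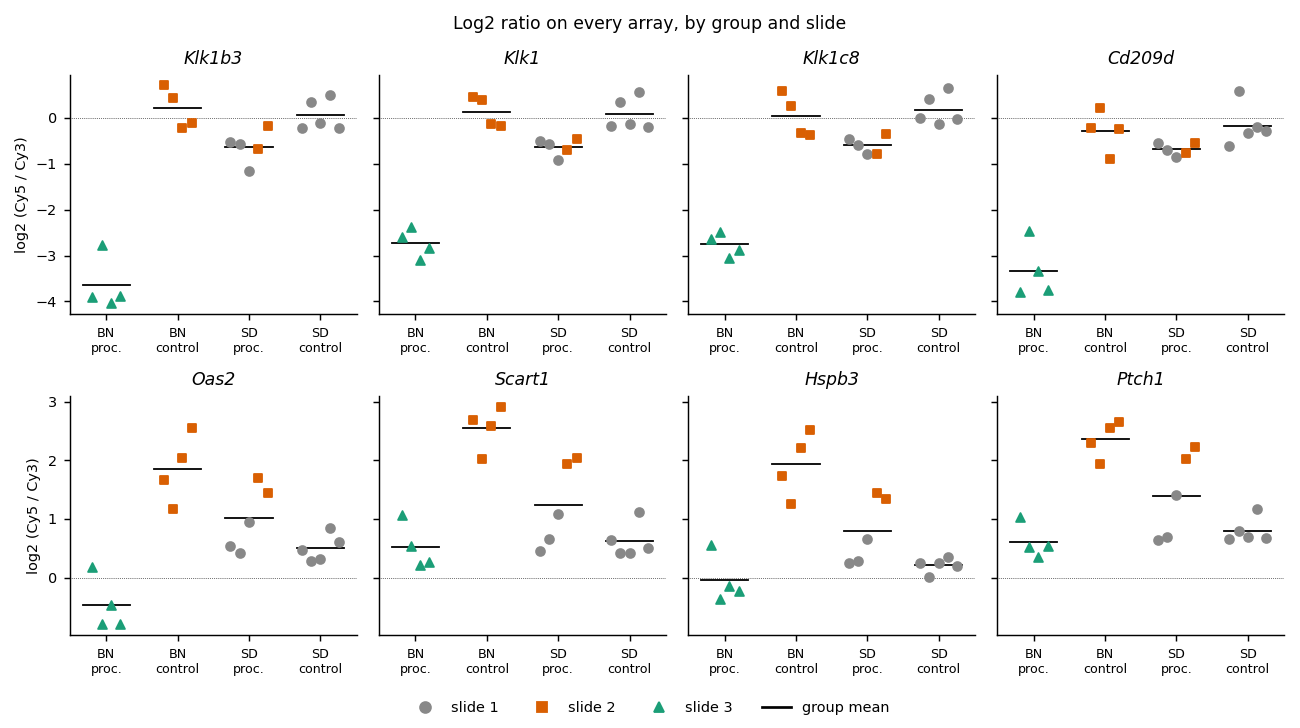
Log2 Cy5 over Cy3 on each of the 18 arrays for 8 genes with a lower BN response, 1 point per array, with the slide as colour and shape and the group mean as a bar. In Klk1b3, Klk1, Klk1c8 and Cd209d the BN procainamide arrays alone stand apart, while in Oas2, Scart1, Hspb3 and Ptch1 the BN control arrays and the 2 SD procainamide arrays of slide 2 are all high.

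Another set among the 12 largest lower genes had its high values on slide 2. Oas2, which makes the oligoadenylates that activate RNase L, had log2 ratios of 0.17, -0.80, -0.47 and -0.80 in BN procainamide and of 1.66, 1.18, 2.05 and 2.54 in BN control. The SD arrays read 0.54, 0.42, 0.95, 1.70 and 1.44 with procainamide and 0.47, 0.28, 0.32, 0.84 and 0.61 in controls. All 6 arrays of slide 2 had ratios, each to its own strain's reference, above those of all 12 others. The highest SD values were replicates 4 and 5 of the treated group. The array labelled BN control 1 in both channels read 1.66, and that labelled SD control 1 in both channels read 0.47. Why such arrays depart from 0 was not tested. The difference was -2.84 ± 0.40 (adjusted p = 0.00132), and it was -1.54 ± 0.58 with scan day as a term.

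Scart1, a scavenger receptor known in mice from gamma delta T cells, had 1.07, 0.54, 0.21 and 0.26 in BN procainamide and 2.69, 2.02, 2.58 and 2.92 in BN control. In SD the ratios were 0.46, 0.66, 1.08, 1.93 and 2.04 with procainamide and 0.64, 0.42, 0.42, 1.11 and 0.51 in controls. Ptch1, the receptor of hedgehog ligands, had 1.04, 0.51, 0.35 and 0.53 in BN procainamide and 2.29, 1.94, 2.54 and 2.66 in BN control. In SD Ptch1 had 0.64, 0.70, 1.41, 2.02 and 2.22 with procainamide and 0.65, 0.79, 0.69, 1.17 and 0.68 in controls. In both genes replicates 4 and 5 of SD procainamide were again the highest of their strain. Their ratios, to another reference, were close to those of the BN controls on the same slide. The differences were -2.64 for Scart1 and -2.35 for Ptch1, and -0.89 and -0.66 with scan day as a term. Hspb3 (a small heat shock protein), Kpna5 (an importin), Enpp7 (an intestinal sphingomyelinase), Akap1 (a mitochondrial anchor of protein kinase A), Pck1 (a gluconeogenic enzyme) and RT1-M4 (a nonclassical class I molecule) had differences of -2.55, -2.35, -2.34, -2.28, -2.27 and -2.15. With scan day as a term these were -1.16, -0.95, -1.01, -1.08, -1.09 and -0.68. Their mean in SD procainamide was higher on slide 2 than on slide 1 in each case, which is the contrast that sets the scan day term.

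**Figure D3:**
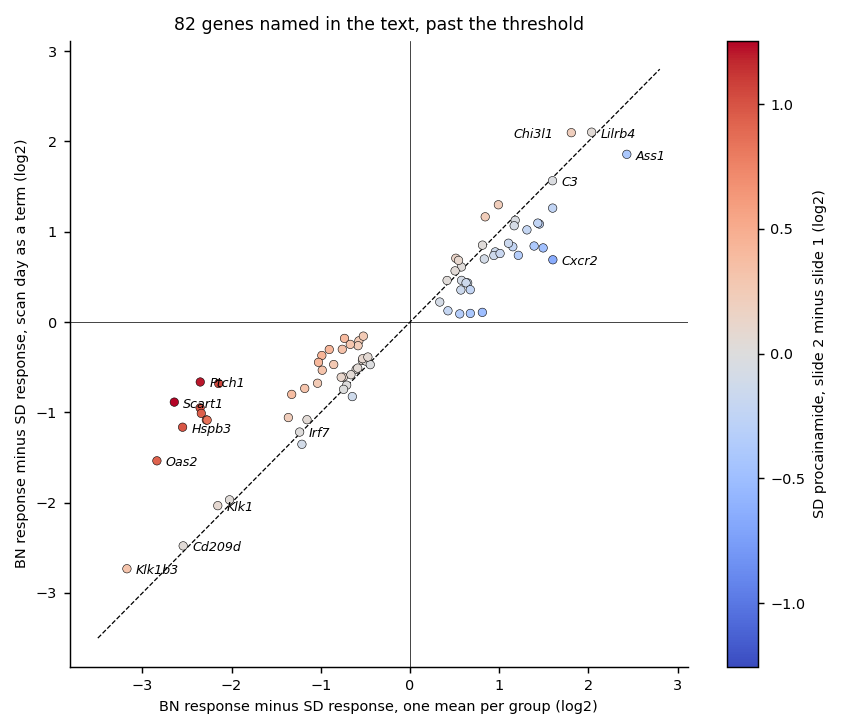
Difference in response, in log2, of the 82 genes picked by the naming rule that passed the threshold. The horizontal axis has 1 mean per group and the vertical axis has scan day as a term. Colour gives SD procainamide on slide 2 minus slide 1. Klk1b3, Klk1 and Cd209d lie near the dashed line of equal values, while Oas2, Scart1, Hspb3 and Ptch1, in red, lie well above it. The scan day term is set by that same slide contrast, so distance from the line and colour are not separate observations. The term does not adjust for slide 3, which held BN procainamide arrays alone.

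The genes with the higher BN response were led by Ass1, argininosuccinate synthase, which rebuilds arginine for nitric oxide synthesis. Its log2 ratios were 2.88, 5.05, 3.30 and 3.41 in BN procainamide and -0.35, 0.05, -0.44 and -0.09 in BN control. In SD they were 1.05, 1.75, 1.90, 0.90 and 1.41 with procainamide and -0.09, -0.46, 0.34, 0.05 and -0.01 in controls. Ass1 rose in both strains, with no overlap between the treated and control arrays of a strain. The BN response was 3.87 ± 0.34 and the SD response 1.44 ± 0.31 (difference 2.43 ± 0.46, adjusted p = 0.00363, and 1.86 with scan day as a term). C3, the central complement protein, had 1.99, 3.32, 2.65 and 2.24 in BN procainamide and -0.15, 0.30, -0.29 and 0.81 in BN control. In SD C3 had 0.47, 0.61, 0.89, 0.64 and 0.63 with procainamide and -0.27, -0.39, 0.18, -0.08 and -0.15 in controls. C3 was higher on every treated array than on every control array of its strain, and differed between strains by 1.60 ± 0.33 (adjusted p = 0.00588, scan day term 1.56).

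Lilrb4, Chi3l1 and Cxcr2, among the 12 largest, had estimates of opposite sign in the strains. Of the 24 monocyte and macrophage markers tested, 1 was lower in BN (4.17%, against 7.54% of all genes). None was higher, and the median was -0.04. Lilrb4, an inhibitory receptor of myeloid cells, had 0.41, 1.90, 0.90 and 0.42 in BN procainamide and -0.10, -0.19, -0.52 and 0.26 in BN control. SD arrays gave -0.60, -0.40, -1.71, -1.16 and -0.55 with procainamide and -0.10, 0.01, 0.20, -0.16 and 0.58 in controls. All treated arrays were above the controls in BN and below them in SD, and the difference was 2.04 ± 0.42 (adjusted p = 0.0056, scan day term 2.10). The BN rise passed the test (1.05 ± 0.31, adjusted p = 0.024) and the SD value of -0.99 ± 0.28 did not (adjusted p = 0.066). Chi3l1, a chitinase-like glycoprotein of macrophages and neutrophils, differed by 1.81 ± 0.41 (BN 1.51, SD -0.30, scan day term 2.10, brightness term 0.98). Cxcr2, the neutrophil receptor for CXC chemokines, differed by 1.60 ± 0.39 (BN 0.76, SD -0.84), with 0.69 under the scan day term and 0.63 under the brightness term, and neither strain's response passed by itself. Among further chemokine receptors, Ccr1 differed by 1.31 and Ccr2 by 1.11, with scan day terms of 1.02 and 1.23, while Cxcr6, Ccr6 and Ackr3 differed by 0.99, 0.78 and -0.75. With array brightness as a term Ccr1 had 0.13 and Cxcr6 0.56.

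Of 18 chemokine receptors tested, 5 were higher in BN (27.8%, against 3.15% of all genes). The scavenging receptor Ackr3 was lower (5.56%, against 7.54%). The median was 0.40 against 0.01 for all genes, and 0.16 with brightness as a term. Of 24 neutrophil markers only Cxcr2 passed (4.17% higher, against 3.15% of all genes). Their median of 0.31 was 0.17 with scan day and -0.15 with brightness as a term. The defining neutrophil markers S100a8, S100a9 and Csf3r had differences of 0.92, 1.11 and 0.98 that did not pass, and the part of neutrophil number in these results was not tested. The Ccr1 call ended without BN control 4 (adjusted p = 0.0502), and that of Cxcr6 without BN control 4, BN procainamide 2 or BN procainamide 4 (0.0575 at most).

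Also among the 12 largest were Dnase2b, a lysosomal nuclease (1.60), Zp3, an egg coat glycoprotein (1.49), Rnase10, of the ribonuclease A family (1.45), Sucnr1, the succinate receptor (1.43), and Aqp12a, an aquaporin (1.39). With scan day as a term these were 1.26, 0.82, 1.09, 1.10 and 0.84, and with brightness as a term Sucnr1 had 0.30 and Aqp12a 0.74. The call of Dnase2b ended when any of 9 of the 18 arrays was left out (adjusted p up to 0.0748) and that of Sucnr1 with any of 13 (up to 0.092). Zp3 was above background on 1 of 5 SD control arrays, and Sucnr1 likewise had a group with 1 array above background.

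Of 22 interferon gamma targets tested, Ass1, Ciita, Irf1 and Gbp2 had a higher response in BN (18.2%, against 3.15% of all genes). None had a lower one, against 7.54% of all genes. In all, 21 estimates were positive, where 50.6% of all genes had a positive one. The median was 0.59, and it was 0.48 with scan day as a term, 0.19 with array brightness as a term and 0.61 without the control 1 arrays. In BN alone 17 of the 22 rose, where 8.99% of all genes did, and in SD alone 11 rose, where 1.42% did. None of them fell in either strain, where 13.8% of all genes fell in BN and 1.76% in SD. Over the 22 genes the median log2 ratio was 0.65, 1.42, 1.19 and 1.00 on the BN procainamide arrays and 0.01, -0.03, -0.35 and -0.15 on BN control. It was 0.49, 0.74, 0.62, 0.45 and 0.67 on SD procainamide and -0.15, -0.25, 0.19, -0.14 and -0.01 on SD control. Within each strain every treated array thus lay above every control array.

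Irf1, a transcription factor induced by interferons, had log2 ratios of 1.31, 1.61, 1.40 and 1.43 in BN procainamide and 0.23, 0.03, -0.05 and -0.32 in BN control. The SD arrays read 0.61, 0.78, 1.03, 0.88 and 0.78 with procainamide and -0.14, -0.24, 0.23, -0.25 and 0.02 in controls. Irf1 rose in both strains without overlap of treated and control arrays (difference 0.58 ± 0.17, adjusted p = 0.0386, scan day term 0.61). In Cy5 alone it was 0.13 (limma adjusted p = 0.454), and the reference channel alone gave -0.39. Gbp2, an interferon-inducible GTPase, differed by 0.81 ± 0.25 (BN 1.87, SD 1.06), and by 0.11 with scan day and 0.28 with brightness as a term. Ciita, the master regulator of class II genes, had 0.44, 0.52, 0.37 and 0.76 in BN procainamide and -0.44, -0.08, -0.30 and -0.36 in BN control, against 0.05, 0.10, 0.23, 0.07 and -0.12 in SD procainamide and 0.05, 0.03, -0.20, -0.17 and -0.20 in SD control. Its groups were apart in BN and overlapped in SD (difference 0.65 ± 0.14, adjusted p = 0.00802, scan day term 0.43). The calls of Irf1 and Gbp2 were not stable: leaving out any of 12 arrays ended that of Irf1 (adjusted p up to 0.0943, without BN control 4) and any of 13 that of Gbp2 (up to 0.103, without BN control 4).

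The largest rises of the list besides Ass1 did not differ between strains past the threshold. Acod1, which makes itaconate, had a response of 4.89 in BN and 3.06 in SD, a difference of 1.84 (adjusted p = 0.0686). Ifng itself had 3.43 and 2.17, the chemokine Cxcl9 3.14 and 2.13, and Gch1, which makes tetrahydrobiopterin, had the only negative difference, -0.30. The GAS letters TTCNNNGAA, searched on both strands, were in 8 of 20 promoters of the list with a RefSeq entry and in 8.68% of all promoters. Of the 3 members past the threshold with such an entry, 1 held the letters, so holding them did not separate the members that differed. Stretches of the promoters of Irf1 (chr10:38417768-38417826, plus strand), Igtp (chr10:42874908-42874966, plus strand) and Irgm (chr10:33742590-33742648, minus strand), build GRCr8, are shown with the GAS letters in capitals, since Irf1 differed between strains while Igtp and Irgm rose in both with no difference past the threshold.
Irf1: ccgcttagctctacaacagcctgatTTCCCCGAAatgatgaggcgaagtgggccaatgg
Igtp: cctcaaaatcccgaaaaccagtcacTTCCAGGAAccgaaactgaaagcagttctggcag
Irgm: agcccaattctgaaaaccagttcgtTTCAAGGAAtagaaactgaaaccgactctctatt

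**Figure D4:**
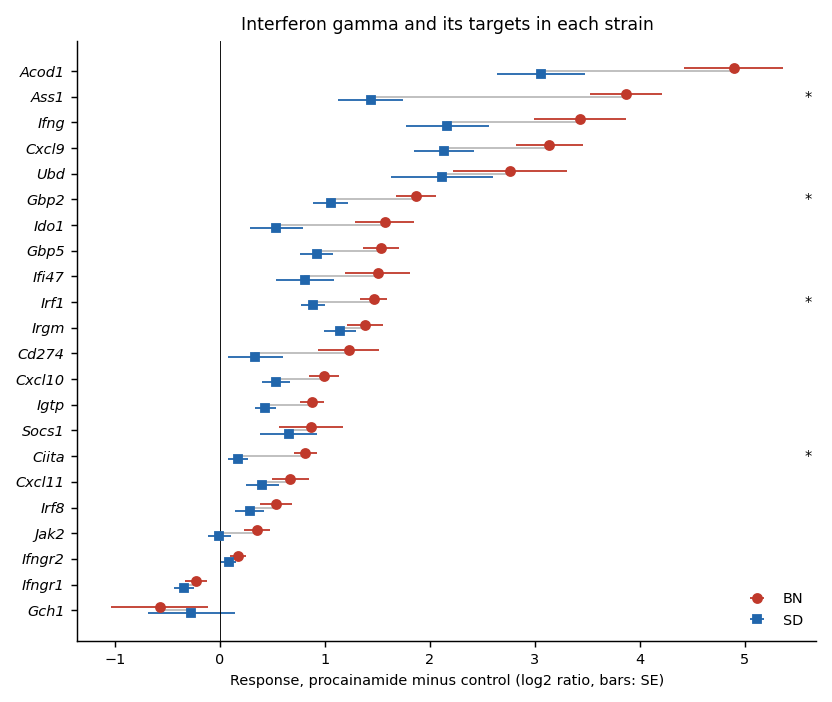
Response to procainamide of interferon gamma and the other genes of its target list, BN as red circles and SD as blue squares, in log2 with bars of 1 standard error. The asterisks mark the 4 genes whose strain difference passed the threshold, and the BN point lies right of the SD point for 21 of the 22 genes.

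Genes of the type I interferon response did not share this direction. Of 29 tested, Oas2, Irf7 and Ifi27 were lower in BN, none was higher, and the median was -0.18, or -0.39 with brightness as a term. Those 3 are 10.3% of the list, near the 7.54% of all genes that were lower. Irf7, the factor that amplifies type I interferon, had -0.78, -0.89, -0.83 and -0.13 in BN procainamide and 0.55, -0.24, -0.53 and -0.10 in BN control. In SD the ratios were 0.17, 0.63, 0.76, 0.35 and 0.72 with procainamide and -0.49, -0.24, 0.11, -0.08 and 0.03 in controls. The treated arrays were above the controls in SD, and the BN groups overlapped. The difference was -1.24 ± 0.29 (adjusted p = 0.0106, scan day term -1.22), although neither the BN response of -0.58 nor the SD response of 0.66 passed alone. Ifi27, an interferon-induced mitochondrial protein, differed by -1.21 (BN -0.51, SD 0.71, scan day term -1.35). In Cy5 alone Irf7 had -0.75 and Ifi27 -0.57, and the reference channel alone gave 0.51 and 0.59. Over the list the array of BN control 1 had a median log2 ratio of 0.45, where BN control 2, 3 and 4 had -0.08, -0.24 and -0.20, and without it the list's median difference was 0.01.

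Among 25 targets of NF-kB and inflammatory cytokines, Ccl20, Il1rn, Tnf, Ccl3 and Icam1 were higher in BN (20%, against 3.15% of all genes). Bcl3 was lower (4%, against 7.54%), and the median was 0.19. Ccl20, the ligand of Ccr6, had 2.18, 2.86, 2.07 and 2.02 in BN procainamide and -0.21, -0.55, -0.45 and -0.15 in BN control. SD arrays gave 1.08, 1.54, 1.40, 0.85 and 1.15 with procainamide and -0.12, -0.53, 0.19, -0.14 and -0.43 in controls. It rose in both strains without overlap of treated and control arrays (difference 1.21 ± 0.26, adjusted p = 0.00668, scan day term 0.74). Only 2 of 5 SD control arrays had Ccl20 well above background. Il1rn, the interleukin-1 receptor antagonist, differed by 0.96 (BN 1.16, SD 0.20), Ccl3 by 0.83 (BN 0.67, SD -0.16) and Tnf by 0.89 (BN 1.29, SD 0.40), with scan day terms of 0.78, 0.70 and -0.00. Bcl3, an atypical inhibitor of NF-kB, is 1 of the 8 genes that changed in opposite directions. It fell by 0.39 in BN and rose by 0.47 in SD (difference -0.86 ± 0.14, adjusted p = 0.0021, scan day term -0.47). In Cy5 alone its difference was -0.35, and the reference channel alone gave 0.50.

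Those 8 genes made up 0.0588% of the genes tested. Rbm20, a splicing factor, had -0.05, 0.05, 0.39 and 0.14 in BN procainamide and -0.26, -0.27, -0.64 and -0.44 in BN control. In SD it had -0.74, -0.73, -0.76, -0.72 and -0.84 with procainamide and -0.23, -0.19, -0.18, -0.25 and 0.27 in controls. Its treated arrays were all above the controls in BN and all below them in SD, and it rose by 0.54 ± 0.12 in BN and fell by 0.64 in SD (difference 1.18 ± 0.16, adjusted p = 0.00132, scan day term 1.13). Rapgef5, an exchange factor for Rap, rose by 0.70 in BN and fell by 0.46 in SD (difference 1.17, scan day term 1.07), and the small membrane protein Smim3 rose by 0.28 and fell by 0.40 (difference 0.68). The other 4 fell in BN and rose in SD: Or6d12c, an olfactory receptor (-1.03), Ncapg2, a condensin subunit (-0.77), Ptpn11, a tyrosine phosphatase (-0.76), and Ndst1, a heparan sulfate enzyme (-0.74). With scan day as a term these were -0.45, -0.61, -0.30 and -0.75. By contrast 237 genes (1.74%) were called in the same direction in both strains. Hk3, a hexokinase of leukocytes, rose by 4.12 in BN and by 3.20 in SD, a difference of 0.92 (95% interval -0.01 to 1.85, adjusted p = 0.185). Pla1a, a phospholipase, rose by 0.90 in BN and by 0.80 in SD, with a difference of 0.09 (-0.23 to 0.41).

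Of 26 genes of T helper subsets and regulatory T cells, Ctla4, Il4 and Il2 were higher in BN (11.5%, against 3.15% of all genes). Il9 was lower (3.85%, against 7.54%). The median was 0.28, or 0.19 with brightness as a term. Il4, the cytokine of T helper type 2 cells, had 0.14, -0.05, -0.13 and 0.46 in BN procainamide and -0.09, -0.32, -0.07 and -0.03 in BN control. The SD arrays read -0.35, -0.37, -0.08, -0.53 and -0.17 with procainamide and 0.10, 0.18, 0.03, -0.07 and -0.03 in controls. The BN groups overlapped and the SD treated arrays were all below the controls, with a difference of 0.58 ± 0.17 (adjusted p = 0.0323) and no response that passed in either strain. Il4 was above background on 1 of 4 BN control arrays. Ctla4, an inhibitory receptor of T cells, differed by 0.81 (BN 0.60, SD -0.21). Il2 had no BN procainamide array above background, so its difference of 0.43 has no measured size. The calls of Il4, Ctla4 and Il2 ended when any of 6, 12 and 12 arrays was left out (adjusted p up to 0.0642, 0.0867 and 0.0985).

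Of 24 genes of NK cells and cytotoxicity, the receptor genes Klrc1 and Klrc2 were higher in BN (8.33%, against 3.15% of all genes). Klrc1 had 1.29, 1.94, 1.05 and 1.99 in BN procainamide and -0.28, 0.03, -0.47 and -0.84 in BN control, against 0.60, 0.82, 1.16, 0.36 and 0.90 in SD procainamide and 0.24, 0.01, -0.04, -0.35 and -0.02 in SD control. It rose in both strains with no overlap (difference 1.15 ± 0.30, adjusted p = 0.0186, scan day term 0.83), and Klrc2, a near-identical copy, differed by 0.94. Among 12 plasma cell and secretory genes all 12 estimates were positive, with a median of 0.43, or 0.11 with brightness as a term. Only Xbp1, the factor that drives the secretory programme, passed (1.01 ± 0.26, BN 0.84, SD -0.17), which is 8.33% against 3.15% of all genes. None of 19 B cell markers passed, where 10.7% of all genes did. Of 21 T cell markers only Lef1 passed (-0.53), which is 4.76% lower against 7.54% of all genes. Its call ended when any of 9 arrays was left out (adjusted p up to 0.0786).

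Cell cycle and DNA replication genes were mostly below 0. Of 34 tested, Cdc20, Birc5, Mcm2 and Mcm4 were lower in BN (11.8%, near the 7.54% of all genes). Only 3 estimates were positive, where 50.6% of all genes had a positive one, and the median was -0.50. Birc5, or survivin, had -0.10, -0.21, -0.44 and -0.39 in BN procainamide and 0.79, -0.38, 0.22 and 0.20 in BN control, against 0.18, 0.59, 1.12, 0.46 and 0.90 in SD procainamide and -0.02, -0.30, 0.23, -0.16 and 0.19 in SD control. In BN the groups overlapped through control 2, and control 1 was the highest. The difference was -1.16 ± 0.29 (adjusted p = 0.0162, scan day term -1.08). Mcm2, a subunit of the replicative helicase, rose by 0.57 in SD and had -0.14 in BN (difference -0.71), a call that ended without BN procainamide 4, SD control 2 or SD procainamide 5 (adjusted p up to 0.0591).

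BN control 1 bore on this list and on the erythroid genes. Over the 34 cell cycle genes its median log2 ratio was 0.65, where BN control 2, 3 and 4 had -0.48, -0.34 and -0.49, and without it the list's median difference was -0.26. Over 27 erythroid genes, none of which passed, it was 1.43 on BN control 1 and -1.65, -0.99 and -1.36 on the other BN controls. The erythroid median difference was 0.49 without that array and -0.22 with all arrays.

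Complement genes went both ways, with C3, C5ar1 and C1s higher and Masp1, C8b and C8a lower in BN among 25 tested. Each direction held 12% of the list, against 3.15% of all genes higher and 7.54% lower. C1s, a protease of the classical pathway, had 0.61, 0.62, 0.57 and 0.77 in BN procainamide and -0.17, -0.01, -0.29 and -0.16 in BN control. In SD the ratios were 0.18, 0.16, -0.05, 0.31 and 0.15 with procainamide and -0.08, -0.22, -0.05, -0.23 and -0.12 in controls. The BN groups were wide apart and the SD groups met at -0.05, with a difference of 0.51 ± 0.12 (adjusted p = 0.00958, scan day term 0.71). Masp1, of the lectin pathway, and C8b, of the membrane attack complex, differed by -0.91 and -0.73, and by -0.30 and -0.18 with scan day as a term. Both had replicates 4 and 5 of SD procainamide as the highest of their strain.

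Genes of DNA methylation were of interest because procainamide inhibits DNA methyltransferase 1. Of 13 tested, 1 was higher (7.69%, against 3.15% of all genes) and 2 were lower in BN (15.4%, against 7.54%), among them Gadd45b and Tet3. Tet3, which oxidises methylated cytosine, had -0.38, -0.10, -0.08 and 0.04 in BN procainamide and 0.32, 0.52, 0.43 and 0.54 in BN control, and in SD 0.08, 0.07, 0.35, 0.17 and 0.28 with procainamide and 0.22, 0.12, 0.13, 0.04 and 0.05 in controls. It fell in BN without overlap and its SD groups overlapped (difference -0.66 ± 0.13, adjusted p = 0.00384, scan day term -0.58). Gadd45b, a stress gene linked to demethylation, had 0.58, 0.44, 0.35 and 0.29 in BN procainamide and -0.22, 0.03, -0.35 and -0.17 in BN control. SD arrays gave 0.01, -0.18, -0.10, 0.03 and -0.01 with procainamide and -0.02, -0.20, 0.01, -0.21 and -0.08 in controls. It rose in BN and its SD groups overlapped (difference 0.54 ± 0.13, adjusted p = 0.0102, scan day term 0.68). Of 11 T cell genes known to respond to methylation, only Il4 passed (9.09% higher, against 3.15% of all genes).

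Of 20 genes that answer glucocorticoids, Fkbp5, a chaperone of the receptor, was higher and Ddit4 and Tat were lower in BN. That is 5% higher and 10% lower, against 3.15% and 7.54% of all genes. Fkbp5 had 0.23, 0.66, -0.01 and 0.47 in BN procainamide and 0.15, -0.02, 0.04 and 0.05 in BN control, against -0.73, -0.78, -0.55, -0.29 and -0.62 in SD procainamide and 0.28, -0.13, -0.55, 0.09 and 0.15 in SD control. It fell in SD by 0.56 and did not pass in BN (difference 0.84 ± 0.22, adjusted p = 0.0202, scan day term 1.17). Ddit4, an inhibitor of mTORC1, fell by 1.36 in BN and had -0.18 in SD (difference -1.18, scan day term -0.74).

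The shares called among genes of glycolysis (10.3%), ribosomal proteins (9.33%) and the proteasome (9.09%) were near the 10.7% of all genes, and that of oxidative phosphorylation was 3.17%. Of 29 genes of glycolysis, Tpi1, triose phosphate isomerase, was higher (0.63, BN 0.71, SD 0.08) and Pfkl and Hk2 were lower (-0.99 and -0.52), and with scan day as a term these were 0.43, -0.37 and -0.16. Of 63 genes of oxidative phosphorylation Cox7c and Ndufa1 were higher, by 0.68 and 0.56, and by 0.10 and 0.09 with scan day as a term. Of 75 ribosomal protein genes 7 were lower and none was higher, among them Rpl17 (-0.59), Rpl27a (-0.67) and Rpl35 (-0.45), and the median was -0.20. The call of Hk2 ended when any of 11 arrays was left out and that of Ndufa1 with either of 2 (adjusted p up to 0.0906 and 0.0592). The call of Rpl27a ended without BN control 4 (adjusted p = 0.0512) and that of Rpl35 without BN control 3 (0.0534). Of 33 proteasome genes Psmd12 and Psmc6 were higher and Psmb6 was lower, by 0.33, 0.57 and -0.53, and each of these calls ended when at least 1 array was left out (adjusted p up to 0.0672, 0.0762 and 0.104).

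Of 11 endothelial markers, 2 were lower in BN (18.2%, against 7.54% of all genes), Cdh5 and Esam. The list's median was 0.09, with 6 estimates positive and 5 negative, and it was -0.02 with scan day as a term. The Esam call ended when any of 13 arrays was left out (limma adjusted p up to 0.0825). Cdh5, the cadherin of endothelial junctions, was the only 1 of the 26 defining markers to pass. It had -0.04, -0.28, -0.34 and -0.51 in BN procainamide and 0.73, 0.72, 0.96 and 1.30 in BN control, and in SD -0.04, 0.05, 0.50, 0.53 and 0.56 with procainamide and 0.12, 0.18, 0.10, 0.40 and 0.27 in controls. The BN groups did not overlap and replicates 4 and 5 were again the highest of SD procainamide (difference -1.33 ± 0.21, adjusted p = 0.00164, scan day term -0.80). Pecam1, the other endothelial marker, had -0.24 and did not pass. Of 18 platelet genes P2ry12, the platelet receptor for ADP, was lower (-0.57, scan day term -0.21), which is 5.56% against 7.54% of all genes. The eosinophil markers Epx, Prg2 and Ccr3 had differences of -1.27, -1.63 and -1.0 that did not pass. In the eosinophil, basophil and mast cell list Tpsb2 was lower among 21 (4.76%, against 7.54% of all genes), and the median was -0.40. The Tpsb2 call ended when any of 13 arrays was left out (adjusted p up to 0.111). The part of eosinophil number in any result was not tested.

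**Figure D5:**
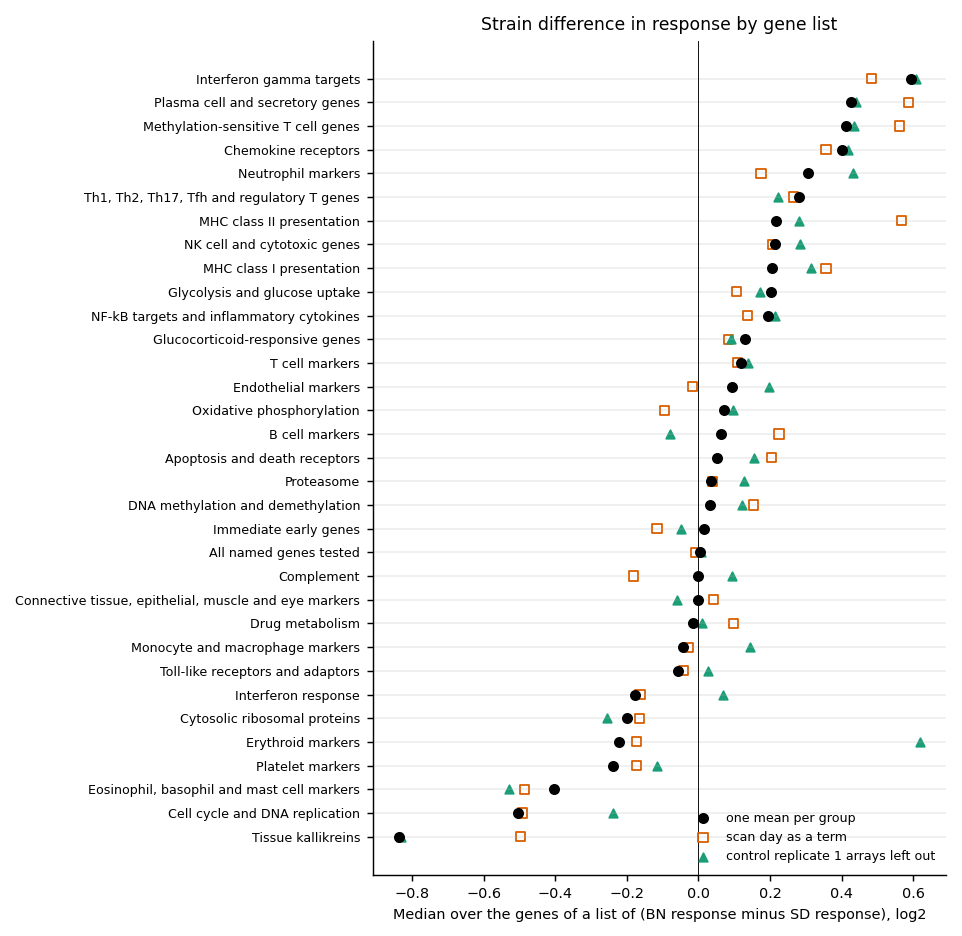
Median over the genes of each list of the BN response minus the SD response, in log2, with 1 mean per group (black circles), with scan day as a term (open squares) and without the control replicate 1 arrays (triangles). Interferon gamma targets are highest and tissue kallikreins lowest in the first, and the triangle of the erythroid markers lies at 0.62, on the other side of 0 from the circle.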

How the data were processed

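The deposited scanner files hold median Cy5 and Cy3 spot and background intensities, not normalized, made with Feature Extraction 10.7.1.1 on Agilent design 028279, per the file headers. They also hold the software's processed intensities and log10 ratios of Cy5 over Cy3, per the file headers, and the authors deposited a matrix of log2 ratios whose scale and centring are not stated. Its columns lay on a line of slope 1 against the scanner log ratios taken to base 2. Where mean intensities had been planned, medians were used.

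In R 4.3.3 with limma 3.58.1, intensities were background-corrected (normexp, offset 50) and normalized by loess within arrays, and replicate spots were merged into 1 mean per probe. There were 30367 probes, 18355 of them with a single gene symbol. The 26446 whose Cy5 signal the scanner called well above background on 4 or more of the 18 arrays were tested. A model with a mean per group (14 residual degrees of freedom, eBayes, 2-sided) gave each difference, with Benjamini-Hochberg adjustment over all probes. The tests were checked on simulated data. The labels do not say whether arrays came from separate animals, so the p-values cover only the spread among these arrays, which may be technical.

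A gene is represented by its brightest tested probe. Named are the 12 largest differences in each direction past the threshold, up to 4 members of each of 32 lists by smallest p (2 where none passes), up to 10 genes called in opposite directions and 6 called alike in both strains. Members of the kallikrein, interferon gamma and marker lists, and other list members past the threshold, are also given, apart from a few that are not reported here. The comparison, the lists and this rule were chosen with earlier results of these data known. Promoters come from RefSeq, build GRCr8. Replicate numbers did not pair treated and control arrays (correlations of their deviations -0.523 to 0.129).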

Additional observations from a re-analysis of the deposited data

Results flagged for a closer look

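The responses of the strains differed for 82 genes picked by the naming rule. The test was of the difference itself, limma's strain by drug term at an adjusted p under 0.05. Other list members past the threshold given in the text, such as Klk1c3 and Tnf, are not among the 82. All values are the log2 response in BN minus that in SD. For 38 of the 82 genes the response was higher in BN. The largest were Ass1 2.43, Lilrb4 2.04, Chi3l1 1.81, Cxcr2 1.60, Dnase2b 1.60, C3 1.60 and Zp3 1.49. Next came Rnase10 1.45, Sucnr1 1.43, Aqp12a 1.39, Ccr1 1.31, Ccl20 1.21, Rbm20 1.18, Rapgef5 1.17 and Klrc1 1.15. They were followed by Cldn4 1.10, Xbp1 1.01, Cxcr6 0.99, Il1rn 0.96, Klrc2 0.94, Fkbp5 0.84 and Ccl3 0.83. Smaller ones were Ctla4 0.81, Gbp2 0.81, Cox7c 0.68, Smim3 0.68, Ciita 0.65, Tpi1 0.63, Il4 0.58 and Irf1 0.58. Further values were Psmc6 0.57, Ndufa1 0.56, Gadd45b 0.54, C1s 0.51, Rfx5 0.51, Il2 0.43, Klf4 0.42 and Psmd12 0.33. The calls of Klf4, Rfx5 and Cldn4 ended when any of 16, 14 and 14 arrays was left out (limma adjusted p up to 0.0875, 0.0909 and 0.104). Il2 has no measured size and turned sign in Cy5 alone.

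For 44 the response was lower in BN. The largest were Klk1b3 -3.17, Oas2 -2.84, Scart1 -2.64, Hspb3 -2.55, Cd209d -2.54, Kpna5 -2.35, Ptch1 -2.35 and Enpp7 -2.34. Next came Akap1 -2.28, Pck1 -2.27, Klk1 -2.16, RT1-M4 -2.15, Klk1c8 -2.02, Klk10 -1.36, Cdh5 -1.33 and Irf7 -1.24. They were followed by Ifi27 -1.21, Ddit4 -1.18, Birc5 -1.16, Cdc20 -1.04, Or6d12c -1.03, Pfkl -0.99, Il9 -0.98 and Masp1 -0.91. Smaller ones were Bcl3 -0.86, Ncapg2 -0.77, Ptpn11 -0.76, Ackr3 -0.75, Ndst1 -0.74, C8b -0.73, Mcm2 -0.71 and Rpl27a -0.67. Further values were Tet3 -0.66, Mcm4 -0.65, Tpsb2 -0.60, Rpl17 -0.59, Rps12 -0.58, P2ry12 -0.57, Lef1 -0.53 and Psmb6 -0.53. The smallest were Hk2 -0.52, Tat -0.50, Esam -0.47 and Rpl35 -0.45. The difference of Cd209d, near the limit of detection, has no measured size. With scan day as a term no gene passed.

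Single arrays stood apart from the rest of their group, with a gap to the nearest array that took up most of the group's range (Dixon's 95% criterion), in 6 of 156 groups of 39 genes (3.85%), where chance gives about 1 in 20. The log2 ratios were -2.78 for Klk1b3 in BN procainamide 2, 1.17 for Ptch1 in SD control 4 and 0.27 for Rbm20 in SD control 5. They were also 1.42 for Plaat3 in BN procainamide 2, and 0.36 and 0.40 for Ggt1 in BN control 3 and SD control 3.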

How the results depend on the processing

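Without scan day the strain difference was called for 2948 probes, and for 0 with scan day as a term, 6 with array brightness as a term, 1193 without the SD procainamide arrays of slide 2, 1364 with the replicate block and 9110 in Cy5 alone, where 43.0% of calls were higher in BN against 23.2%. The calls in BN were 5757, and 209, 685, 3581 and 10184 with scan day, brightness, the replicate block and Cy5 alone. The calls in SD were 727, and 254, 419, 128, 181 and 2601 with scan day, brightness, the replicate block, slide 1 arrays alone for SD procainamide, and array weights. Leaving out 1 array at a time gave 1882 calls (without BN control 4) to 3824 (without BN procainamide 1) for the difference, 3936 to 6497 for BN (the same arrays) and 234 (without SD control 2) to 982 (without BN control 1) for SD.

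In Cy5 alone the sign turned for RT1-A2 (-0.0944) and Il2 (-0.58). In Cy3 alone, which holds only the strains' reference RNA, 13510 of 26446 probes passed, against 2948 in the ratios. By the labels the treated and control arrays of a strain share this RNA. These calls are thus differences between groups of arrays within the same RNA. Of the 82 genes picked by the naming rule that passed, 73 passed with slide as a random block and 64 without the control 1 arrays. The count was 63 with the scanner's log ratios, 65 with median centring and 61 of 77 in the authors' deposited matrix. It was 47 with the replicate block and 42 without the slide 2 arrays of SD procainamide. Leaving out 1 array at a time, 59 of the 82 passed every time and 23 did not. The cause of these changes was not tested. No BN group has arrays on both scan days and slide 3 held BN procainamide alone, which limits every BN response. Probes near background and near-identical copies limit single genes.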
